A study of Mus musculus with 9 samples.

Results

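The type I interferon response genes described here are 39 genes of mouse splenic type 2 conventional dendritic cells (cDC2s): the interferon receptor chains, the transcription factors and RNA sensors of the pathway, and genes that interferon switches on. They were taken by symbol from a fixed list, and all 39 had a row among the 14209 genes of the count table. RNA sequencing covered 9 libraries of spleen cDC2s from C57BL/6 mice, 3 from each of 3 genotypes. The groups were wild-type (WT), CD97-deficient (labelled CD97 KO in the sample labels and Adgre5-/- in the series text) and Gα13-deficient (loxP-flanked Gna13 with a CD11c-Cre transgene). The CD11c promoter drives Cre in dendritic cells and some other myeloid cells, and the labels do not say whether the other groups carried Cre. The genotype label of the Gα13 knockout libraries also names Adgre5-/-, so whether those mice lacked CD97 as well is unclear from the labels. No treatment or age is given. The labels do not tie each library to its own mouse. A p-value here therefore reflects how much libraries vary, which may be technical. The groups are called CD97 knockout and Gα13 knockout below.

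Type I interferons bind the receptor IFNAR, whose kinases JAK1 and TYK2 activate STAT2. With IRF9 it is part of the complex ISGF3, which binds the interferon-stimulated response element (ISRE) in the promoters of its target genes. The products block viral entry, translation and replication, sense viral RNA and damp the receptor's own signal. In dendritic cells, low tonic interferon signalling keeps many of these genes on without infection, and interferon also promotes maturation.

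Libraries held 5679946 to 13904646 counts. On the CPM scale (counts scaled to library size), 3 counts correspond to 0.216 to 0.528. Gna13 ran from 91.8 to 114 CPM in the Gα13 knockout libraries and from 186 to 246 CPM in the other 6, a log2 fold change of -1.09 ± 0.11 against WT (SE, edgeR quasi-likelihood adjusted p = 6.84e-05). Cd97, the older symbol of Adgre5, ran from 438 to 840 CPM in CD97 knockout libraries, from 899 to 1506 in WT and from 1016 to 1224 in Gα13 knockout ones. It did not pass the test after CD97 loss (-0.89 ± 0.28, adjusted p = 0.105). All 15 listed cDC2 markers were present. Cd3e, a T cell gene, ran from 0.170 to 2.85 CPM. Xcr1, a defining gene of cDC1s, ran from 4.04 to 8.43 CPM in WT, 8.21 to 23.0 in the CD97 knockout and 12.8 to 15.8 in the Gα13 knockout. Of 9 tested cDC1 markers, 2 rose and 0 fell after CD97 loss, against 4.84% and 3.69% of all tested genes. After Gα13 loss 2 rose and 1 fell, against 5.74% and 5.24%. The median log2 fold changes of these markers were 0.34 and 0.33. Of 12 tested monocyte markers, 1 rose after CD97 loss (median log2 fold change 0.13) and 2 after Gα13 loss (median 0.58), with sums of 869 to 1419 CPM in WT, 1092 to 1373 in the CD97 knockout and 1405 to 1950 in the Gα13 knockout. The part of such cells in the members' values was not tested. Macrophage markers varied within groups: 22 of 25 listed genes were in the table, none at 0 in any library, summing to 853 to 2120 CPM in WT, 988 to 2684 in the CD97 knockout and 1263 to 1735 in the Gα13 knockout. A female pattern (more counts of Xist than of the Y-linked genes together) was present in all 3 CD97 knockout libraries and in replicate 2 of both other groups. In bulk RNA, fewer cells of a type and less RNA per cell cannot be told apart.

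The promoter sequences are shown because the ISRE is the common control element of this gene family, and because Ifit1, Ifit3 and Herc6, which passed the test below, differ in matches to its core letters. Isg15 is shown as a classical target that did not pass. The windows come from RefSeq (GRCm38.p6, the same assembly as mm10), are written on the gene's own strand from 170 to 41 bases before the start site, and have in capitals each match, on either strand, to GAAA followed by any 2 bases and GAAA again. Ifit1 lies at chr19:34640719-34640848 (+ strand), Ifit3 at chr19:34583359-34583488 (+), Herc6 at chr6:57580822-57580951 (+) and Isg15 at chr4:156200859-156200988 (- strand).
Ifit1: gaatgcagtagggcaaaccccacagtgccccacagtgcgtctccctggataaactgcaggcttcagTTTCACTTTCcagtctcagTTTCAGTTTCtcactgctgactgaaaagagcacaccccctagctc
Ifit3: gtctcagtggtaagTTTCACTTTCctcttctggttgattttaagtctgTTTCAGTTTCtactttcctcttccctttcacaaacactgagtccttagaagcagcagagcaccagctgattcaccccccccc
Herc6: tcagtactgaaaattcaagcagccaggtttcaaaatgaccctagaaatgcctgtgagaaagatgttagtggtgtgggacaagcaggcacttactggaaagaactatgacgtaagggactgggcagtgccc
Isg15: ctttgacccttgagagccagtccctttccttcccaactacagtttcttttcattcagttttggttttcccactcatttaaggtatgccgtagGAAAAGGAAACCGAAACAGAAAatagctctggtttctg

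Ifit1 and Ifit3 each held 2 matches, with the same TTTCACTTTC and TTTCAGTTTC letters in the same order. Isg15 held 3 matches that overlap each other, and the window of Herc6 held none. Over the full window of 250 bases before to 50 after the start site, 12 of the 29 members in the RefSeq table (41.4%) had a match, against 3.99% of its 27025 genes. The 12 were Stat2, Ddx58, Ifih1, Eif2ak2, Oas1a, Oas3, Ifit1, Ifit3, Isg15, Rsad2, Bst2 and Trim30a. The match of Ifih1, GAAACAGAAA, starts 33 bases into the transcript. Ifit2, with 2 annotated start sites, had none. A match is a string of letters, not a measured binding site. Dhx58, Zbp1, Oas2, Mx1, Mx2, Usp18, Parp9, Parp14, Rtp4 and Tor3a were not in that table.

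The members also share positions. Ifit2, Ifit3 and Ifit1 lie within 99.3 kb on chromosome 19 (34550694 to 34650009, mm10), and Oas2, Oas3 and Oas1a within 177.2 kb on chromosome 5 (120730333 to 120907521). Oasl2 and Oasl1, Mx1 and Mx2, Parp14 and Parp9, Ifnar2 and Ifnar1, and Rsad2 and Cmpk2 are each neighbours too, so members are not independent of each other. Reads of close copies are uncertain, which concerns Ifit3 (its copy Ifit3b was not analysed here), Oas1a and Trim30a. Parp9 shares exon bases with Dtx3l on the other strand, and Irf7 with Phrf1. Their reads cannot be told apart if counting ignored strand, and no source used here states that setting. Irf9 shares 123 exon bases with Rnf31 on the same strand, where strand does not separate reads.

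All 39 members were expressed in WT cDC2s. Per kilobase of annotated exon, the scale on which genes can be compared, WT means (n = 3) ran from 68.1 CPM per kb for Ifnar2, the signalling chain of the receptor, to 1.39 for Ifi44. Stat2 (51.8), Trim30a (49.7), Trim25 (47.9) and Parp14 (45.0) followed Ifnar2. The classical strongly induced genes were spread widely. Oas2 had 38.6, Oas1a 29.3, Usp18 28.7, Mx1 24.3 and Isg15, a ubiquitin-like protein, 22.0 CPM per kb. Ifit1 had 15.0, Rsad2 9.08 and Oasl1 1.93, and the transcription factor Irf7 had 14.6.

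**Figure D1:**
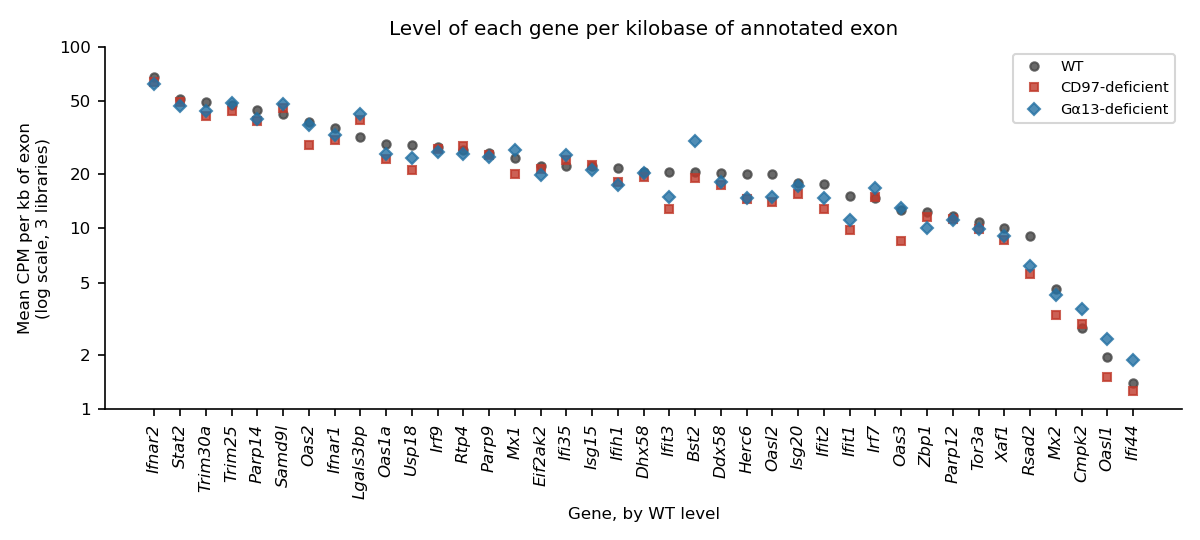
Mean CPM per kilobase of annotated exon (log axis, 3 libraries per group) of the 39 genes, ordered by the WT level, for WT (circles), CD97 knockout (squares) and Gα13 knockout (diamonds) cDC2s. The order runs from Ifnar2 (68.1 in WT) to Ifi44 (1.39 in WT), and the 3 groups lie close together for most genes.

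The spread between libraries was modest for most members. In WT the coefficient of variation of the CPM had a median of 11.5% over the members, against 11.8% for the 9437 tested genes in the same range of levels. It was lowest for Ifih1 (3.10%) and highest for Oasl1 (35.1%). In CD97 knockout libraries the median was 12.99% against 9.75%, and in Gα13 knockout ones 9.24% against 9.69%. Replicate 2 of the CD97 knockout group was the highest of its group for 23 members and the lowest for 3. Replicate 1 was the highest of its group for 20 members in WT and for 25 in Gα13 knockout libraries. The mean member level, as log2 CPM against each gene's mean over the 9 libraries, was 0.15, 0.10 and 0.03 in WT replicates 1 to 3, -0.17, 0.00 and -0.18 in CD97 knockout ones and 0.11, 0.01 and -0.04 in Gα13 knockout ones.

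**Figure D2:**
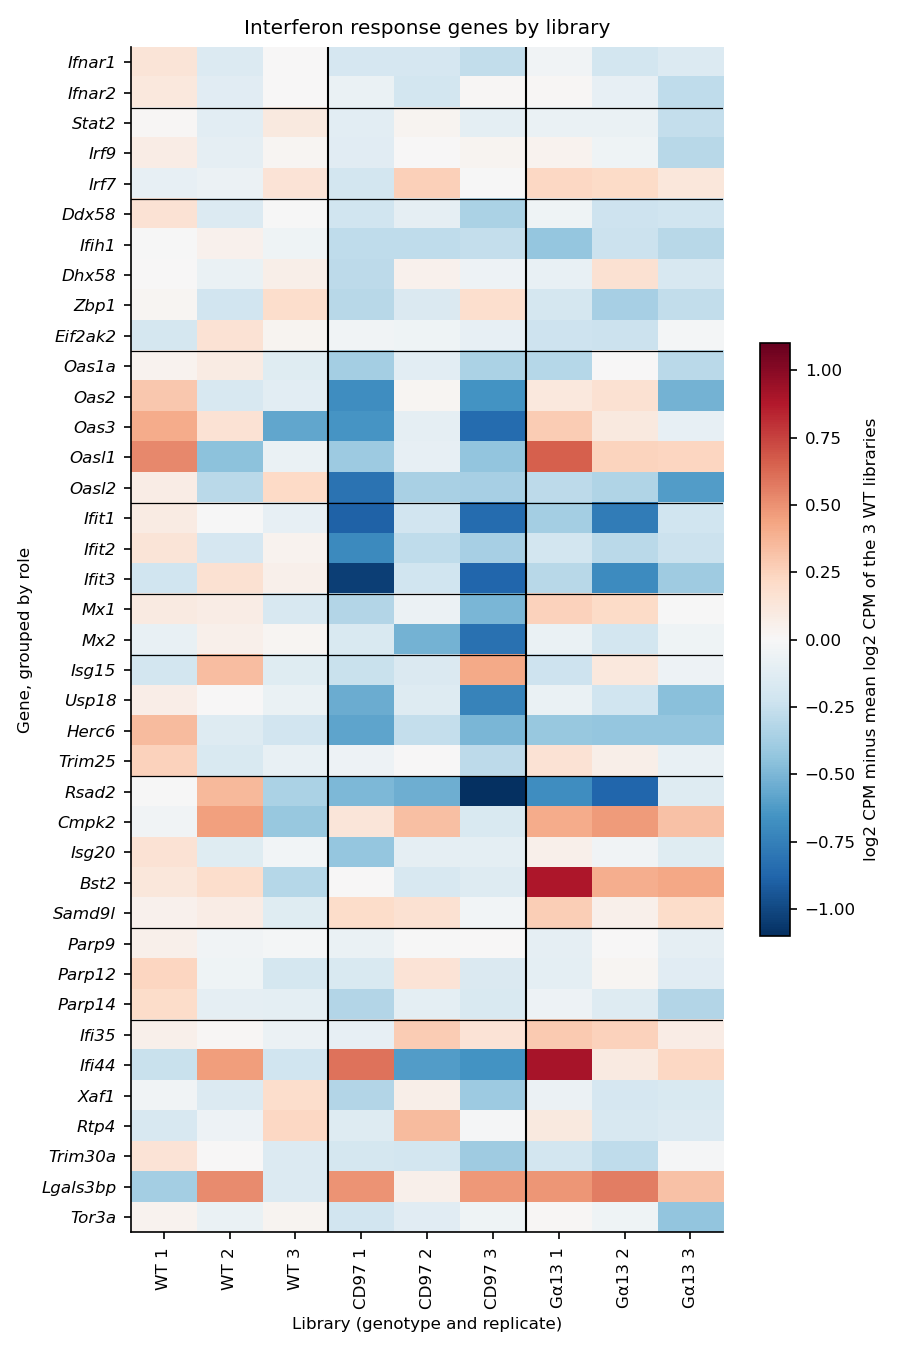
Log2 CPM of each gene minus its mean over the 3 WT libraries, with 1 column per library and rows grouped by role. In CD97 knockout libraries (CD97 1 to 3), replicates 1 and 3 are darker blue than replicate 2 for the IFIT genes, Oas2, Oas3 and Usp18, and Bst2 is red in all 3 Gα13 knockout columns.

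After CD97 loss, 4 interferon response genes fell and none rose: the 3 IFIT genes Ifit1, Ifit2 and Ifit3, and Herc6. Their log2 fold changes lay between -0.45 and -0.68. The other 35 did not pass edgeR's quasi-likelihood test with Benjamini-Hochberg adjustment over 12043 genes and a threshold of 0.05. Of all tested genes, 8.53% passed in this comparison, 3.69% as lower and 4.84% as higher. The log2 fold change was below 0 for 32 of 39 members, with a median of -0.20, against 50.4% of all tested genes, whose median was -0.0034. When 1 library was left out, the members' median lay between -0.24 and -0.13, nearest 0 without WT replicate 1. An unadjusted p under 0.05 was reached by 14 members, all lower, against 24.5% of all tested genes, 12% lower and 12.5% higher. DESeq2 called no member higher either. The summed level of the cDC2 markers was also lower in these libraries, 9825 to 10330 CPM against 11020 to 12520 in WT. It was 10330 to 11580 in Gα13 knockout ones, and none of the 15 was at 0. Of the 15, 2 fell and 0 rose by edgeR after CD97 loss, against 3.69% and 4.84% of all tested genes. Below 0 were 14, with a median log2 fold change of -0.32, and 8 had an unadjusted p under 0.05, all lower. The part of these marker changes in the members' values was not tested.

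In Gα13 knockout cells, 2 members fell and none rose: Ifih1, the RNA sensor MDA5, and Herc6. Of all tested genes, 11% passed, 5.24% as lower and 5.74% as higher, so the members' count is close to the background. Below 0 were 28 of 39 members, with a median log2 fold change of -0.10, against 51% of all tested genes, whose median was -0.0083. When 1 library was left out, the members' median lay between -0.15 and -0.06. It was -0.06 without Gα13 knockout replicate 3, and -0.065 without WT replicate 1, with 25 members below 0 in both fits. Unadjusted p under 0.05 was reached by 6 lower members and 1 higher one, against 25.8% of all tested genes, 12.8% lower and 13.1% higher. The higher one was Bst2, which DESeq2 called (adjusted p = 0.0377). Of the 15 cDC2 markers, 5 fell and 2 rose by edgeR after Gα13 loss, against 5.24% and 5.74% of all tested genes. Below 0 were 12, with a median log2 fold change of -0.22, and their part in the members' values was not tested. Both comparisons use the same WT libraries, so they are not independent of each other.

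**Figure D3:**
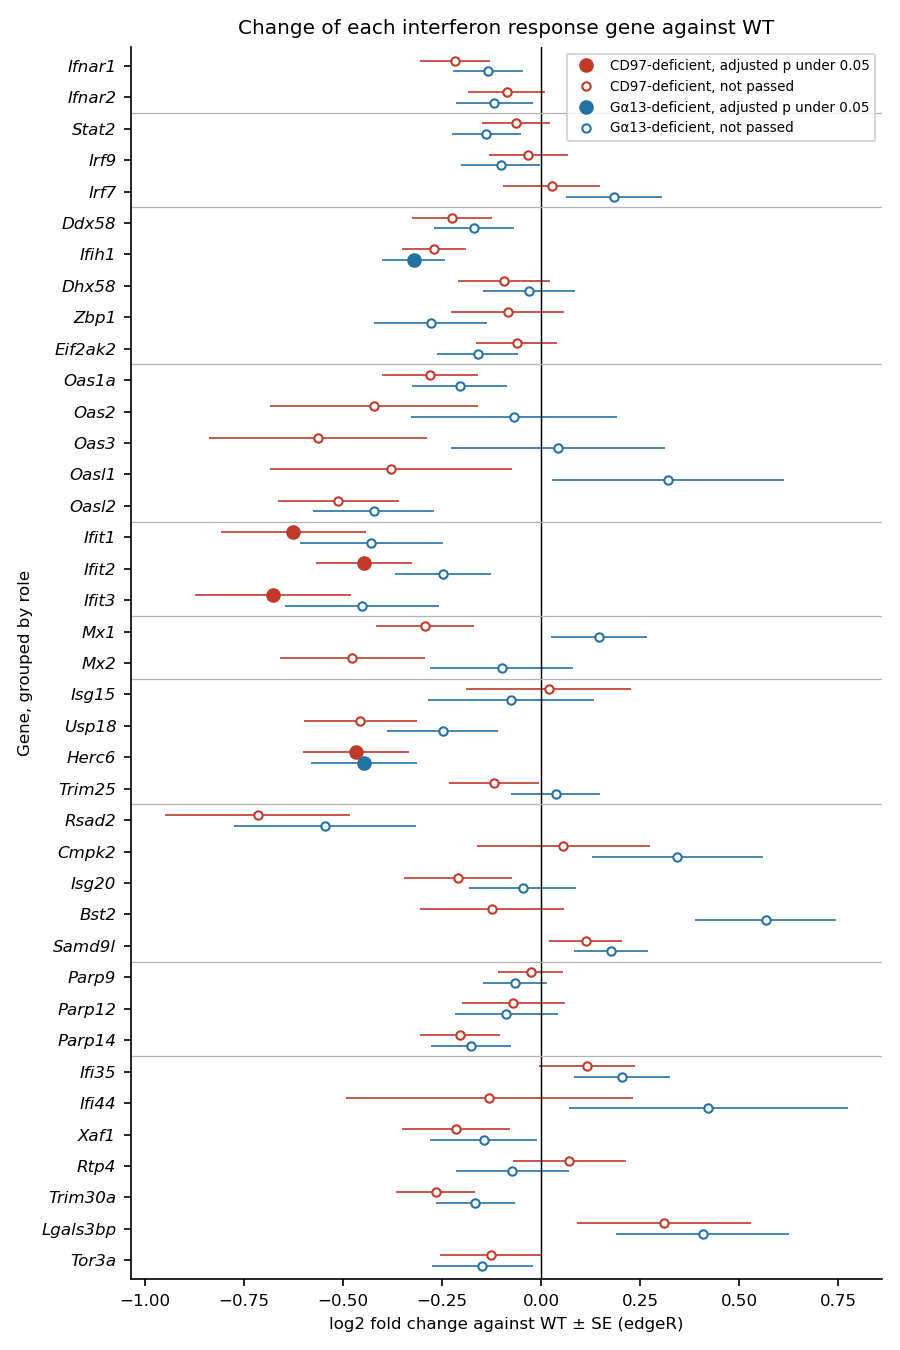
Log2 fold change against WT ± SE from edgeR for each gene, in CD97 knockout (red) and Gα13 knockout (blue) cDC2s, with filled points where the adjusted p was under 0.05. Filled points are Ifit1, Ifit2, Ifit3 and Herc6 in red and Ifih1 and Herc6 in blue, all below 0.

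The IFIT proteins bind foreign RNA ends and block translation. Ifit1 (chromosome 19, 34640871 to 34650009, + strand) had 42.5, 39.8 and 37.5 CPM in WT replicates 1 to 3, 21.5, 34.4 and 22.2 in CD97 knockout ones and 30.8, 23.5 and 34.2 in Gα13 knockout ones. All WT libraries lay above all others, and CD97 knockout replicate 2 was the nearest to them. The log2 fold change was -0.63 ± 0.18 after CD97 loss (SE, edgeR adjusted p = 0.048) and -0.43 ± 0.18 after Gα13 loss (adjusted p = 0.148).

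Ifit3 (34583531 to 34588731), whose product forms complexes with other IFIT proteins, had 30.3, 39.7 and 36.9 CPM in WT, 17.3, 30.5 and 19.3 in the CD97 knockout and 28.6, 21.9 and 27.1 in the Gα13 knockout. Replicate 2 of the CD97 knockout group overlapped with the lowest WT library, and the Gα13 knockout libraries all lay below WT. Its log2 fold change was -0.68 ± 0.20 after CD97 loss (SE, edgeR adjusted p = 0.048) and -0.45 ± 0.19 after Gα13 loss (adjusted p = 0.158).

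Ifit2 (34550694 to 34576419), the most abundant of the family in reads, had 75.4, 59.9 and 70.0 CPM in WT, 42.0, 56.0 and 52.9 in the CD97 knockout and 59.4, 55.5 and 57.9 in the Gα13 knockout. Both knockout groups lay below all WT libraries, and Gα13 knockout replicate 1 came close to WT replicate 2, the lowest of WT. The log2 fold change was -0.45 ± 0.12 after CD97 loss (SE, edgeR adjusted p = 0.0355) and -0.25 ± 0.12 after Gα13 loss (adjusted p = 0.212). The 3 IFIT genes thus had the same order of group means, with WT highest and CD97 knockout lowest, and the knockout groups overlapped for each.

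Herc6 (chromosome 6, 57581000 to 57664632, + strand) encodes the main mouse ligase that attaches ISG15 to proteins. It had 232, 165 and 157 CPM in WT, 121, 152 and 129 in the CD97 knockout and 136, 135 and 136 in the Gα13 knockout. WT replicate 1 stood above the other WT libraries, and both knockout groups lay below all WT libraries. The log2 fold change was -0.47 ± 0.13 after CD97 loss (SE, edgeR adjusted p = 0.0457) and -0.45 ± 0.13 after Gα13 loss (adjusted p = 0.0459). Of the 5 genes called in either comparison, Herc6 was the one that passed in both.

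Ifih1 (chromosome 2, 62595798 to 62646255, - strand) senses long double-stranded RNA. Its levels were 176, 182 and 171 CPM in WT, 146, 146 and 147 in the CD97 knockout and 131, 149 and 143 in the Gα13 knockout. The groups were tight, and all 6 knockout libraries lay below all WT libraries. The log2 fold change was -0.32 ± 0.08 after Gα13 loss (SE, edgeR adjusted p = 0.0182) and -0.27 ± 0.08 after CD97 loss (adjusted p = 0.0503).

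**Figure D4:**
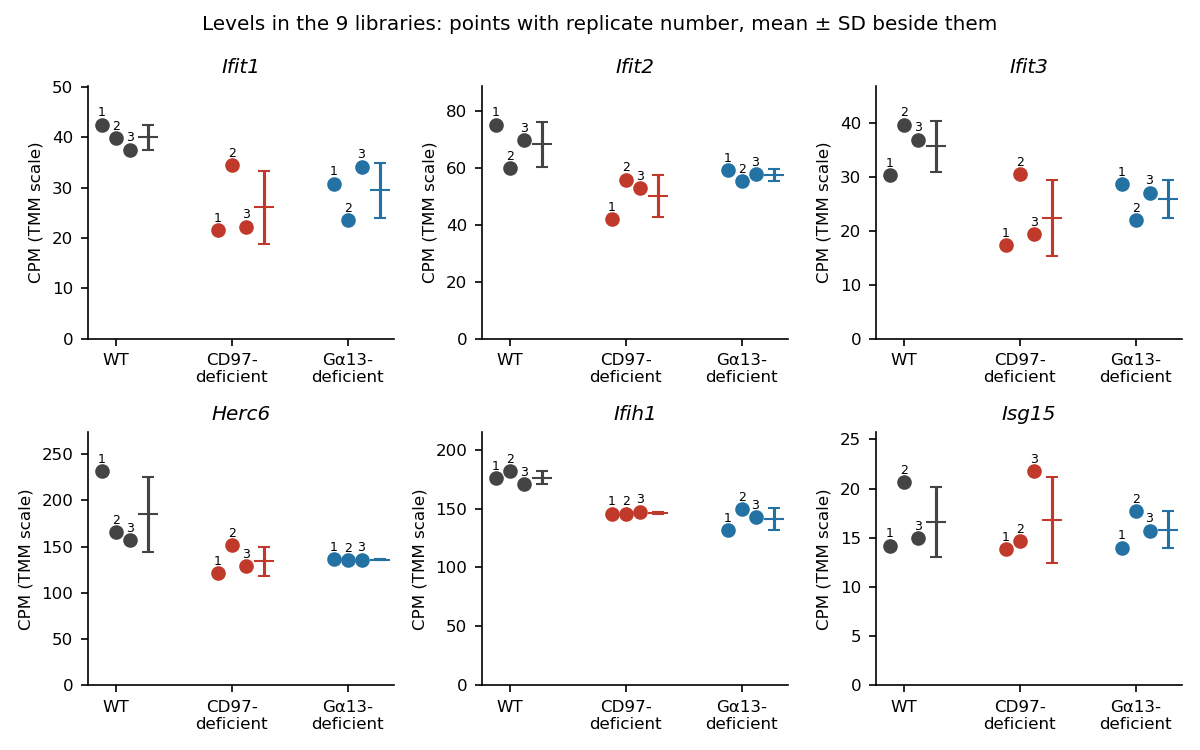
CPM (TMM scale) of the 5 genes that passed in either comparison with WT, and of Isg15, in the 9 libraries: points carry the replicate number, and the bar beside them is the mean ± SD (n = 3). CD97 knockout replicate 2 is the highest of its group for Ifit1, Ifit2, Ifit3 and Herc6, the Ifih1 groups are tight, and the Isg15 groups overlap.

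These calls stood close to the threshold. Of the 9 fits that each left out 1 library (leave-one-out), Ifit2 after CD97 loss was called in 4, Ifit1 and Herc6 in 3 each and Ifit3 in 1. By edgeR 0 members were called without WT replicate 1, CD97 knockout replicate 1 or CD97 knockout replicate 3 (9, 11 and 8 at an unadjusted p under 0.05). Those fits called 3.88%, 4.35% and 3% of all tested genes, against 8.53% with all 9 libraries. In the same order, the adjusted p of Ifit1 was 0.142, 0.166 and 0.195, of Ifit2 0.124, 0.147 and 0.0884, of Ifit3 0.0521, 0.165 and 0.193, and of Herc6 0.139, 0.152 and 0.168. Without WT replicate 2 Ifit1 (0.0736) and Ifit3 (0.106) were not called, without WT replicate 3 Ifit1 (0.0707), Ifit2 (0.073) and Ifit3 (0.104) were not. Without Gα13 knockout replicates 1, 2 and 3 the adjusted p was 0.0627, 0.0588 and 0.062 for Ifit3 and 0.0699, 0.0738 and 0.065 for Herc6, and it was 0.0681 for Ifit1 without replicate 1 and 0.0538 for Ifit2 without replicate 2. With CD97 knockout and WT libraries alone in the fit 0 members were called (13 at an unadjusted p under 0.05), and by DESeq2 8 were: these 4, Ifih1, Oasl2, Usp18 and Rsad2. Of all tested genes, 6.82% were called with those 2 groups alone. DESeq2 called 12.4% of the genes to which it gave an adjusted p.

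The sex pattern and the macrophage markers differed between libraries beside these genes. With the sex pattern in the model 0 members were called by edgeR (9 at an unadjusted p under 0.05), and the log2 fold changes after CD97 loss were -0.48 for Ifit1, -0.32 for Ifit2, -0.66 for Ifit3 and -0.38 for Herc6. Of all tested genes, 1.84% were called after CD97 loss in that fit, against 8.53% without the sex pattern. All 3 CD97 knockout libraries had the female pattern and in WT only replicate 2 did, so sex and genotype can hardly be told apart here. WT replicate 2 lay above all 3 CD97 knockout libraries for each of those 4 genes, but this is 1 library. With the macrophage marker level in the model, again 0 were called (12 at an unadjusted p under 0.05), and the values were -0.52, -0.35, -0.61 and -0.40. That fit called 5.29% of all tested genes after CD97 loss. CD97 knockout replicate 2, the highest of its group for these 4 genes, had a macrophage marker level of -0.73 (mean log2 CPM against all 9 libraries), against 1.01 and 0.54 in replicates 1 and 3. WT replicate 2 had 0.74, against -0.66 and -1.097 in WT replicates 1 and 3.

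After Gα13 loss Ifih1 was called in 8 of the 9 leave-one-out fits, the exception being Gα13 knockout replicate 1 (adjusted p = 0.0774). Herc6 was called in 3 of the 9. It was not called without WT replicate 1 (a log2 fold change of -0.25, adjusted p = 0.155), CD97 knockout replicates 1 and 3 (0.0541 and 0.0669) or Gα13 knockout replicates 1, 2 and 3 (0.113, 0.138 and 0.114). With the replicate number as a block in these 2 groups, the count was 1 member, Herc6 (adjusted p = 0.0459), while Ifih1 had 0.0502. With the sex pattern in the model Ifih1 kept its call (adjusted p = 0.0197) and Herc6 did not (0.0528), and in the male-pattern libraries alone, 2 against 2, neither passed (0.192 and 0.135). In that last fit 5.12% of all tested genes were called, against 11% with all 9 libraries. Oasl2 (-0.60) and Lgals3bp (0.66) were called in it, and without WT replicate 2 Oasl2, Lgals3bp and Bst2 joined Ifih1 and Herc6. With the block over all 9 libraries, Ifih1 and Bst2 were called and Herc6 had 0.0665.

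The receptor chains Ifnar1 and Ifnar2 and the transcription factors Stat2, Irf9 and Irf7 did not pass in any comparison. Ifnar1 had 234, 191 and 212 CPM in WT, 186, 186 and 175 in the CD97 knockout and 205, 184 and 190 in the Gα13 knockout. The CD97 knockout libraries lay just below WT (log2 fold change -0.22 ± 0.09, edgeR adjusted p = 0.143). Ifnar2 had 245, 208 and 227 CPM in WT, 215, 196 and 229 in the CD97 knockout and 229, 212 and 186 in the Gα13 knockout. The 3 groups overlapped, with log2 fold changes of -0.09 ± 0.10 and -0.12 ± 0.10 (edgeR adjusted p = 0.627 and 0.479).

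Stat2 had 309, 282 and 330 CPM in WT, 283, 313 and 285 in the CD97 knockout and 291, 290 and 256 in the Gα13 knockout, again with overlap. Its log2 fold changes were -0.06 ± 0.09 and -0.14 ± 0.09 (SE, edgeR adjusted p = 0.694 and 0.339). Its partner Irf9 averaged 151 ± 9.65 CPM in WT, 148 ± 8.49 in the CD97 knockout and 141 ± 17.1 in the Gα13 knockout (SD, n = 3). Irf7, the factor that amplifies interferon production, averaged 55.2 ± 5.21, 56.2 ± 9.27 and 62.6 ± 2.37 CPM in the same order.

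Among the other sensors, Ddx58 (RIG-I), Dhx58 (LGP2), Zbp1, which binds Z-form nucleic acid, and Eif2ak2, the kinase PKR that halts translation, had log2 fold changes from -0.23 to -0.06 after CD97 loss and from -0.28 to -0.03 after Gα13 loss. None of these 4 passed. Ddx58 averaged 143 ± 15.1 CPM in WT, 122 ± 10.4 in the CD97 knockout and 127 ± 9.15 in the Gα13 knockout (SD, n = 3), and the groups overlapped.

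OAS proteins sense double-stranded RNA and activate RNase L. Of the 5 OAS family genes none passed, and after CD97 loss all 5 log2 fold changes were below 0, from -0.56 to -0.28. Oas2, the member with the most reads, had 209, 150 and 157 CPM in WT, 106, 172 and 108 in the CD97 knockout and 184, 191 and 119 in the Gα13 knockout. CD97 knockout replicates 1 and 3 and Gα13 knockout replicate 3 were low, and replicate 2 of the CD97 knockout group lay within the WT range. Oas3 showed the same split in the CD97 knockout group, with 54.3, 79.3 and 47.4 CPM, but WT ran from 57.4 to 113 CPM. Oasl2, an OAS-like protein, had 132, 101 and 145 CPM in WT and 71.1, 97.4 and 96.8 in CD97 knockout libraries, with no overlap (log2 fold change -0.51 ± 0.15, edgeR adjusted p = 0.0583). In Gα13 knockout cells the OAS fold changes ran from -0.42 (Oasl2) to 0.32 (Oasl1).

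Mx1 and Mx2 are genes of the dynamin-like antiviral GTPase family. The Mx1 gene of C57BL/6 mice carries a deletion that leaves no working protein, and GENCODE annotates Mx2 as a polymorphic pseudogene. Mx1 had 98.0, 96.6 and 80.9 CPM in WT, 73.2, 87.6 and 64.6 in the CD97 knockout and 109, 106 and 90.96 in the Gα13 knockout. All Gα13 knockout libraries lay above all CD97 knockout ones, while each group overlapped with WT. The log2 fold changes against WT were -0.29 ± 0.12 and 0.15 ± 0.12 (edgeR adjusted p = 0.154 and 0.483). Mx2 averaged 16.6 ± 0.80 CPM in WT, 11.9 ± 2.72 in the CD97 knockout and 15.4 ± 0.88 in the Gα13 knockout, and neither change passed (edgeR adjusted p = 0.12 and 0.777).

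Isg15 itself did not differ beyond the spread between libraries. It had 14.2, 20.7 and 14.9 CPM in WT, 13.8, 14.7 and 21.8 in the CD97 knockout and 14.0, 17.7 and 15.7 in the Gα13 knockout, so a single library in both WT and the CD97 knockout group stood above the rest. The log2 fold changes were 0.02 ± 0.21 and -0.08 ± 0.21 (edgeR adjusted p = 0.965 and 0.860). Usp18, which removes ISG15 and blocks the receptor, had 84.1, 80.3 and 76.1 CPM in WT and 54.9, 72.8 and 48.2 in CD97 knockout libraries, without overlap (-0.46 ± 0.14, adjusted p = 0.0621). In Gα13 knockout libraries Usp18 had 76.0, 68.8 and 58.2 CPM. Trim25, a ubiquitin ligase that aids RIG-I, had 325, 243 and 258 CPM in WT, 263, 274 and 224 in the CD97 knockout and 306, 285 and 258 in the Gα13 knockout. WT replicate 1 was the highest of the 9, the groups overlapped, and the log2 fold changes were -0.12 ± 0.11 and 0.04 ± 0.11 (edgeR adjusted p = 0.556 and 0.875).

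Among other antiviral effectors, Rsad2 (viperin), which makes a chain-terminating nucleotide, had the lowest fold change of all members after CD97 loss, -0.72 ± 0.23 (SE, edgeR adjusted p = 0.0828). Its levels were 38.5, 49.3 and 30.2 CPM in WT, 27.4, 26.7 and 18.1 in the CD97 knockout and 24.0, 21.03 and 35.1 in the Gα13 knockout. Cmpk2, the nucleotide kinase gene beside it, had log2 fold changes of 0.06 after CD97 loss and 0.34 after Gα13 loss, and neither passed. Samd9l, which restricts translation in infected cells, had 240, 245 and 211 CPM in WT, 266, 261 and 226 in the CD97 knockout and 280, 240 and 267 in the Gα13 knockout. The groups overlapped (log2 fold changes 0.11 ± 0.09 and 0.18 ± 0.09, edgeR adjusted p = 0.488 and 0.246). Isg20, an RNA exonuclease, had log2 fold changes of -0.21 and -0.05.

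Bst2 (tetherin), which holds budding virus at the cell surface, had the highest fold change of all members after Gα13 loss, 0.57 ± 0.18 (SE, edgeR adjusted p = 0.0538). Its levels were 19.9, 20.8 and 14.6 CPM in WT, 18.2, 16.1 and 16.5 in the CD97 knockout and 33.7, 24.0 and 24.5 in the Gα13 knockout. All Gα13 knockout libraries lay above all others, led by replicate 1. Bst2 passed in 4 of 20 alternatives, 1 of them among the 9 leave-one-out fits: without WT replicate 2 (0.0449), with scaling by totals alone (0.0364), by DESeq2 (0.0377) and with a replicate block over all 9 libraries (0.0401). Without Gα13 knockout replicate 1 its log2 fold change was 0.39 (0.223).

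In mice Bst2 is also a marker of plasmacytoid dendritic cells. Siglech, a defining gene of those cells, had 15.1, 26.8 and 9.68 CPM in WT, 18.3, 5.57 and 10.2 in the CD97 knockout and 75.9, 22.8 and 37.2 in the Gα13 knockout, highest in the same library as Bst2. Of the 19 listed plasmacytoid markers, all were in the table and 18 were tested. After Gα13 loss 2 passed as higher and 0 as lower, against 5.74% and 5.24% of all tested genes. The median log2 fold change of the 18 was 0.82, 1 of them was below 0, and 7 had an unadjusted p under 0.05, all higher. After CD97 loss 0 passed (3 at an unadjusted p under 0.05) and the median was 0.03. Their sum ran from 678 to 937 CPM in WT, 753 to 876 in the CD97 knockout and 845 to 1063 in the Gα13 knockout, and 1 of them, Upb1, was at 0 in some libraries. The part of such cells in the Bst2 value was not tested.

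No PARP gene, whose family attaches ADP-ribose to proteins, passed. Parp14, the member with the most CPM of all, had 481, 389 and 388 CPM in WT, 334, 387 and 371 in the CD97 knockout and 402, 377 and 334 in the Gα13 knockout. WT replicate 1 stood above the rest, and CD97 knockout libraries lay just below WT, with log2 fold changes of -0.20 ± 0.10 and -0.18 ± 0.10 (edgeR adjusted p = 0.226 and 0.287). Parp9, the partner of the ubiquitin ligase Dtx3l, averaged 126 ± 4.58, 124 ± 3.55 and 120 ± 4.91 CPM (SD, n = 3). Parp12 had log2 fold changes of -0.07 and -0.09.

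Of the remaining 7 members, Ifi35, Ifi44, Xaf1, Rtp4, Trim30a, Lgals3bp and Tor3a, none passed. Trim30a, which restrains Toll-like receptor signalling, had 226, 204 and 183 CPM in WT, 178, 177 and 155 in the CD97 knockout and 177, 167 and 201 in the Gα13 knockout. The CD97 knockout libraries lay just below WT (log2 fold change -0.27 ± 0.10, edgeR adjusted p = 0.114), and the Gα13 knockout ones overlapped with it (-0.17 ± 0.10, adjusted p = 0.319). Lgals3bp, a secreted galectin-binding protein, had the highest fold change of all members after CD97 loss, 0.31 (adjusted p = 0.432), and 0.41 after Gα13 loss (adjusted p = 0.286). It had 67.7, 126 and 79.2 CPM in WT, 124, 91.4 and 122 in the CD97 knockout and 123, 130 and 110 in the Gα13 knockout. WT replicate 2 and all knockout libraries but CD97 knockout replicate 2 were high. Ifi44 spread most in both knockout groups, with 12.5, 5.42 and 5.25 CPM in the CD97 knockout and 15.6, 8.87 and 9.71 in the Gα13 knockout. Ifi35, Xaf1, Rtp4 and Tor3a had log2 fold changes from -0.21 to 0.12 after CD97 loss and from -0.15 to 0.20 after Gα13 loss.

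Vcam1, an adhesion molecule of splenic macrophages, followed the same split, with 157, 520 and 61.2 CPM in WT, 693, 98.2 and 311 in the CD97 knockout and 251, 317 and 185 in the Gα13 knockout. Emr1, also a listed macrophage marker, did not, with 326, 277 and 241 CPM in WT, 201, 183 and 165, and 193, 163 and 154. Of 22 tested macrophage markers, 1 rose and 2 fell by edgeR in each comparison with WT, against 8.53% and 11% of all tested genes. Their median log2 fold changes were 0.82 after CD97 loss (3 below 0) and 0.13 after Gα13 loss (8 below 0). With the macrophage marker level in the model, the log2 fold change of Lgals3bp was 0.12 after CD97 loss (edgeR adjusted p = 0.620) and 0.30 after Gα13 loss (0.109). The CD97 value was 0.03 with the sex pattern in the model (0.960). Without WT replicate 1 the values were 0.12 and 0.23 (0.799 and 0.555). Without WT replicate 2, Lgals3bp passed as higher after CD97 loss (0.62, adjusted p = 0.0110) and after Gα13 loss (0.72, 0.00360), the only one of 19 alternatives with a call after CD97 loss. After Gα13 loss it passed in 2 of 20, the other being the male-pattern libraries alone (0.66, 0.0261).

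**Figure D5:**
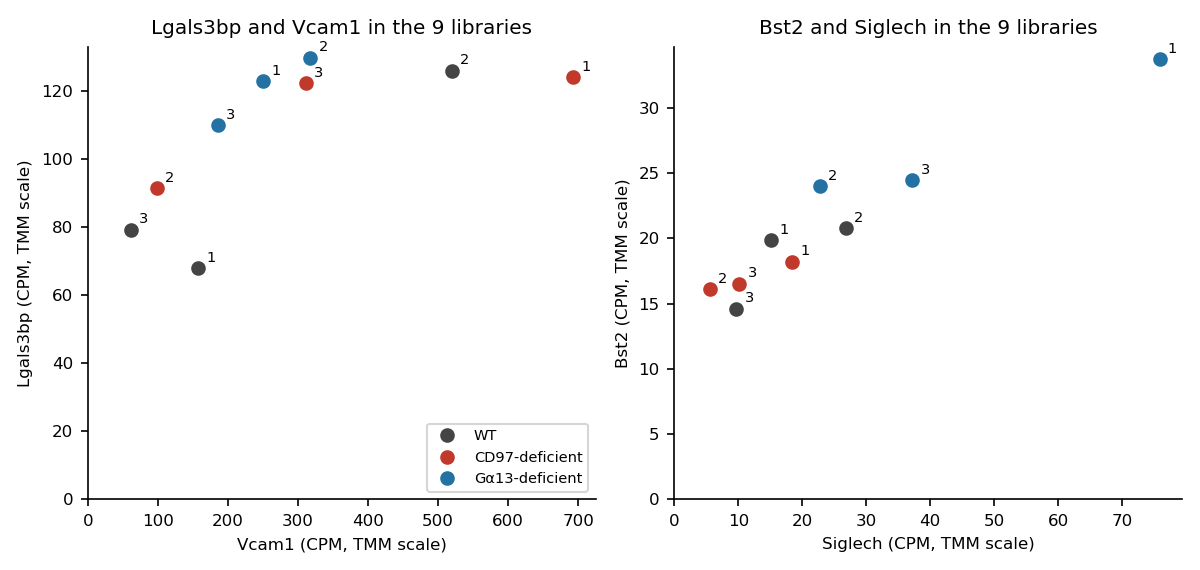
Left, Lgals3bp against Vcam1, and right, Bst2 against Siglech, in CPM (TMM scale), 1 point per library with its replicate number. The libraries with the lowest Lgals3bp, WT replicates 1 and 3 and CD97 knockout replicate 2, have the lowest Vcam1, and Gα13 knockout replicate 1 is highest for both Bst2 and Siglech.

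Between the knockouts, 0 of the 39 interferon response genes passed edgeR's test and 0 passed by DESeq2, and edgeR called 0.0498% of all tested genes, 0.0166% as lower and 0.0332% as higher in Gα13 knockout cells. At an unadjusted p under 0.05 there were 3 members, against 6% of all tested genes (2.78% lower and 3.21% higher), and all 3 were higher in Gα13 knockout cells. They were Bst2 (log2 difference 0.69 ± 0.18, adjusted p = 0.403), Mx1 (0.44 ± 0.12, adjusted p = 0.461) and Oasl1 (0.70 ± 0.30, adjusted p = 0.788). The median difference over the members was 0.09, and for the IFIT genes the differences were 0.20 ± 0.18 (Ifit1), 0.20 ± 0.12 (Ifit2) and 0.23 ± 0.20 (Ifit3). A difference that misses the threshold does not show that the genotypes were alike in these genes.

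Other genes of the pathway were read from a second list of 32 kinase, adaptor, sensor and regulator genes, 31 of them in the table and 29 tested. After CD97 loss 3 fell and 0 rose by edgeR, against 8.53% of all tested genes, 3.69% as lower, and the median log2 fold change was -0.13. An unadjusted p under 0.05 was reached by 6 lower and 2 higher genes. After Gα13 loss 3 fell and 1 rose, against 11% of all tested genes, 5.24% as lower, with a median of -0.10. There, 7 lower and 4 higher genes had an unadjusted p under 0.05. Between the knockouts 0 passed, with 3 at an unadjusted p under 0.05. Tyk2, the kinase bound to IFNAR1, had 175, 157 and 167 CPM in WT, 112, 112 and 109 in the CD97 knockout and 124, 111 and 104 in the Gα13 knockout. All knockout libraries lay well below WT. It fell by 0.58 ± 0.09 and by 0.56 ± 0.09 on the log2 scale (SE, edgeR adjusted p = 0.00133 and 0.00115), and kept its call in all 19 and all 20 alternatives run for the respective comparison.

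Tlr7, the X-linked endosomal receptor for single-stranded RNA, had 185, 149 and 144 CPM in WT, 123, 105 and 91.5 in the CD97 knockout and 107, 91.1 and 114 in the Gα13 knockout. It fell in both comparisons, by 0.58 ± 0.13 and 0.61 ± 0.13 (SE, edgeR adjusted p = 0.0134 and 0.00753). Its call after CD97 loss was lost without WT replicate 1 (0.0528), without CD97 knockout replicate 3 (0.0744) and with the sex pattern in the model (0.163). Its call after Gα13 loss was lost in the male-pattern libraries alone (0.055). Unc93b1, which carries such receptors to endosomes, fell after CD97 loss (-0.42, adjusted p = 0.0161), but not without CD97 knockout replicates 1 or 3 (0.0652 and 0.0744), with the sex pattern in the model (0.222) or with the macrophage level in it (0.0526).

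Tbk1, the kinase that activates IRF3, fell after Gα13 loss (-0.54, edgeR adjusted p = 0.0243), but was not called without WT replicate 1 (0.108) or Gα13 knockout replicates 1 and 2 (0.0881 and 0.0953). Ptpn6, the phosphatase SHP-1, rose after Gα13 loss (0.30, adjusted p = 0.0394) and was called in 1 of the 9 leave-one-out fits. Leaving out WT replicates 2 and 3 gave it 0.122 and 0.118. The values were 0.0593, 0.0606 and 0.0568 without CD97 knockout replicates 1 to 3, 0.0792, 0.153 and 0.0621 without Gα13 knockout replicates 1 to 3, and 0.0731 with the replicate block in the 2 groups. Jak1, the other receptor-bound kinase, ran from 341 to 449 CPM over the 9 libraries and did not pass in any comparison.

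A further list held 53 other interferon-stimulated genes, 45 of them in the table and all 45 tested. After CD97 loss 5 fell and 0 rose by edgeR, against the same 8.53%, 3.69% as lower, with a median log2 fold change of -0.06. Of these genes, 10 lower and 3 higher had an unadjusted p under 0.05. After Gα13 loss 4 fell and 2 rose, against 11%, with a median of 0.01 and 7 genes in each direction at an unadjusted p under 0.05. Between the knockouts 0 passed, with 7 at an unadjusted p under 0.05. Trim34a, a TRIM protein gene, fell in both comparisons, by 0.46 and 0.52 (edgeR adjusted p = 0.00664 and 0.00208), as did Ddx60, a helicase that aids RNA sensing, by 0.59 and 0.60 (0.00798 and 0.00519), and Epsti1, by 0.43 and 0.47 (0.0212 and 0.0101). Ddx60 had 95.1, 83.6 and 102 CPM in WT, 60.1, 71.2 and 55.5 in the CD97 knockout and 56.9, 59.3 and 69.0 in the Gα13 knockout. All 6 knockout libraries lay below WT, as for Ifih1. Without CD97 knockout replicate 3 Ddx60 had 0.0546 after CD97 loss. Epsti1 was not called after CD97 loss without WT replicate 2 (0.0617) or CD97 knockout replicates 1, 2 and 3 (0.0846, 0.055 and 0.0563), nor after Gα13 loss without Gα13 knockout replicate 2 (0.0582). With the sex pattern in the model, Trim34a (0.0724), Ddx60 (0.117) and Epsti1 (0.0855) were not called after CD97 loss.

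Trim30d, a close copy of Trim30a, fell after CD97 loss (-0.51, edgeR adjusted p = 0.00816), but not without CD97 knockout replicate 3 (0.0514) or with the sex pattern in the model (0.108). Slfn5, a Schlafen gene named here after its values were seen, fell as well (-0.29, adjusted p = 0.0419) and was called in 2 of the 9 leave-one-out fits. It had 0.107, 0.0648 and 0.0507 without WT replicates 1 to 3, 0.118 and 0.196 without CD97 knockout replicates 1 and 3, and 0.0574 and 0.0558 without Gα13 knockout replicates 1 and 2. With the sex pattern in the model it had 0.302. The difference between the knockouts did not pass for either gene (adjusted p = 0.492 and 0.933).

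After Gα13 loss Uba7, the activating enzyme of ISG15, fell (-0.41, edgeR adjusted p = 0.0182), but not without WT replicate 3 (0.0565) or Gα13 knockout replicates 2 and 3 (0.0827 and 0.0607). Ly6e, a membrane protein that blocks coronavirus entry, rose (0.42, adjusted p = 0.00628), from 885, 825 and 729 CPM in WT to 1096, 1114 and 1056, in all 9 leave-one-out fits. Slfn9 rose as well (0.73, adjusted p = 0.0122), with 0.0505 without WT replicate 1 and 0.0503 without Gα13 knockout replicate 2. In the male-pattern libraries alone, Tyk2 and Ddx60 kept their calls after Gα13 loss, while Trim34a (0.0805), Epsti1 (0.239), Uba7 (0.104), Ly6e (0.121), Slfn9 (0.0825), Tbk1 (0.19) and Ptpn6 (0.475) did not. Of the 21 interferon ligand genes listed, Ifnk was the one found in the table. It had 18 to 65 counts per library and did not pass in any comparison.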

How the data were processed

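RNA from splenic cDC2s of 9 libraries was sequenced, 3 per genotype. The authors deposited whole-number counts per gene symbol for 14209 genes, and no gene has a total under 10 counts. The submitters' processing notes name STAR, HTSeq, DESeq2 and mm10, with no versions. Strand use: not given in the sources used here. Source names linked the WT columns to their samples, and groups and replicate numbers come from the titles. Counts were fitted with edgeR 4.0.16 in R 4.3.3 (limma 3.58.1): TMM factors, the default expression filter by group (12043 genes kept, 2166 removed, all 39 members kept), a robust quasi-likelihood F-test with all 9 libraries in 1 fit, and Benjamini-Hochberg adjustment over all genes tested (threshold 0.05). The fit was tested on simulated data. The CPM values printed are on the TMM scale. An SE is the log2 fold change divided by the square root of F.

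Between WT and Gα13-deficient libraries of the same number, departures from the group mean correlated weakly (r from 0.111 to 0.179, other pairs -0.12 to -0.0207). Such departures sum to 0 within a group for each gene, so the negative values of the other pairs are not separate evidence. Values blocked by replicate number are given for these 2 groups. This pairing rests on those correlations, since the labels state none, and on the numbers in the titles. The count table numbers the WT columns 2 to 4 where the titles give 1 to 3. By column number, Gα13-deficient library 2 would share its number with WT replicate 1 (r = -0.12), and 3 with WT replicate 2 (r = -0.0645). Alternatives were DESeq2 1.42.0, other scaling and filters, leaving out each library, the replicate block, the sex pattern and the macrophage marker level. The members and gene lists were chosen with earlier results of these data known. Genes described in full are those called in any comparison and the member with the highest mean CPM of each role. From the other lists, the 4 called genes with the smallest p in each direction are named. Library totals set the precision, and 3 counts are the floor used. Gene positions and exon lengths came from the GENCODE annotation of mm10, and promoters from RefSeq (GRCm38.p6).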

Additional observations from a re-analysis of the deposited data

How the results depend on the processing

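No called member changed sign under any alternative run. After CD97 loss, against 4 members called, 1 was called with library totals as the scaling, 8 by DESeq2, and 0 with the 2 groups alone, with the sex pattern or with the macrophage level in the model. Leaving out 1 library gave 0 to 5, with 3% to 10.4% of all tested genes called. That share was 8.53% in the first fit and 9.18% with library totals. It was 6.82% with the 2 groups alone, 1.84% with the sex pattern and 5.29% with the macrophage level. After Gα13 loss, against 2 members called, there was 1 called without an expression filter, with the sex pattern, with the macrophage level and when the replicate block was fitted to the 2 groups, and 0 by edgeR with the 2 groups alone (8 at an unadjusted p under 0.05). Of all tested genes, these fits called 9.05%, 11%, 9.27%, 10.1% and 8.14% in that order, against 11%. Leaving out 1 library gave 0 to 5 members, with 5.64% to 11.9% of all tested genes called. Without robust estimation, an alternative chosen after seeing the data, 1 member was called in each of these comparisons. Between the knockouts 0 were called in all 19 alternatives. The median difference there ran from 0.058 to 0.17 when 1 library was left out, the highest without CD97-deficient replicate 2. The causes were not tested. The replicate block gave 3 members after CD97 loss, with all 9 libraries or the 2 groups alone. Those libraries share only a number: same-number correlations ran from -0.301 to 0.0594, and own-number correlations were the best for 0 of 6 libraries (1 of 6 between the knockouts). Library totals moved the split of all called genes after CD97 loss from 583 higher and 444 lower to 774 and 331. In all, 3 libraries a group limit what small changes can be called, and genes at a few CPM, such as Oasl1 and Ifi44, rest on few counts.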
